A study of Mus musculus with 7 samples.

Results

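The genes described here are 10 ligands, receptors and modulators of transforming growth factor beta (TGF-beta) and bone morphogenetic protein (BMP) signalling in fetal mouse lung endothelium. They are the TGF-beta ligand genes Tgfb1, Tgfb2 and Tgfb3, the receptor genes Tgfbr1, Tgfbr2 and Tgfbr3, the BMP ligand genes Bmp2, Bmp4 and Bmp6, and Bmper, which encodes a secreted BMP-binding protein. They were chosen by gene symbol among 22180 genes represented by a probe set with exactly 1 symbol. Each of the 10 had 1 such probe set, and all 10 passed the filter on dim genes that left 16637 genes for testing.

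Endothelial cells had been sorted from the lungs of embryos at E18.5, close to term. The labels give 3 of the samples as wild-type and 4 as Sash1-knockout. The knockout samples came from Sash1-/- embryos and the wild-type samples from littermates, both on a C57BL/6 background. Cells were sorted as viable, positive for CD31 and negative for CD45 and CD326, a gate set to leave out leukocytes and epithelial cells, and 1 array was made per sample. The labels state neither which part of Sash1 was removed nor whether each sample was 1 embryo or a pool, so the spread behind each p-value is that between samples and may be partly technical.

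Signal is the RMA value of a probe set on the log2 scale, on which a difference of 1 is a doubling. Arrays are called wild-type 1 to 3 and knockout 1 to 4 by their labels, and values are given in that order. Sash1 itself read 9.02, 8.73 and 8.33 on the wild-type arrays and 8.29, 8.21, 8.68 and 8.13 on the knockout arrays. Its difference was -0.37 (95% confidence interval -0.83 to 0.10; adjusted p = 0.971, limma), which became -0.20 without wild-type 1 and -0.55 without wild-type 3, and -0.67 when wild-type 3 and knockout 3 were both left out (adjusted p = 0.277). Wild-type 3 thus lay near the knockout values and knockout 3 near wild-type 2, so every direction below rests on the labels. A probe set outside the removed part would check nothing. Pecam1, which encodes CD31, measured 11.03 to 11.21 on the 7 arrays and Cdh5, the endothelial cadherin gene, 11.83 to 11.97. Epcam, which encodes CD326, measured 4.06 to 5.31 and Ptprc, which encodes CD45, 3.51 to 4.85. Other lung epithelial markers ranged from dim to bright, such as Hopx at 5.05 to 5.81 and Sftpc at 10.2 to 12. So did leukocyte markers, such as Csf1r at 4.03 to 4.32 and Lyz2 at 7.22 to 10.15. Epcam and Ptprc alone thus do not show how clean the sort was. The mean of 10 pan-endothelial markers was 10.11 to 10.19 on the wild-type arrays and 10.06 to 10.29 on the knockout arrays, that of 5 lymphatic endothelial markers 7.34 to 8.04 and 7.5 to 8.04, and that of 5 mesothelial markers 5.15 to 6.11 and 5.27 to 5.59.

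TGF-beta ligands are secreted in a latent form and, once released, bind the type II receptor TGFBR2, which activates the type I receptor TGFBR1; the signal is carried by SMAD2 and SMAD3. TGFBR3, or betaglycan, is a co-receptor that presents ligand. BMPs use related receptors and mainly SMAD1, SMAD5 and SMAD9, and in vessels the balance of both branches is known to govern endothelial quiescence, growth and response to flow.

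Of the 10 genes, 0 passed limma's test between labels at a Benjamini-Hochberg adjusted p of 0.05, as did 0 (0%) of all 16637 genes tested. At an unadjusted p of 0.05, 0 of the 10 were past the threshold, against 3.34% of all genes tested. The labels overlapped in all 10, whereas 2.45% of all genes tested had no overlap. Differences, given throughout as Sash1-knockout minus wild-type, were above 0 in 6 of the 10 and below 0 in 4, with a median of 0.01, beside 53.9% above 0, 45.6% below 0 and a median of 0.02 over all genes tested. This balance moved with single arrays and settings. Without wild-type 3, 4 were above 0 and 6 below, with a median of -0.13. Without knockout 4, 3 were above and 7 below. With the replicate number as a block the differences were the same as without knockout 4, which is the only array of its number. With array weights, and with wild-type 3 and knockout 3 both left out, 4 were above and 6 below (medians of -0.055 and -0.19). The adjusted p was 0.971 to 1 for each of the 10 genes. In bulk samples of this kind, fewer cells of a type and less RNA per cell cannot be told apart.

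**Figure D1:**
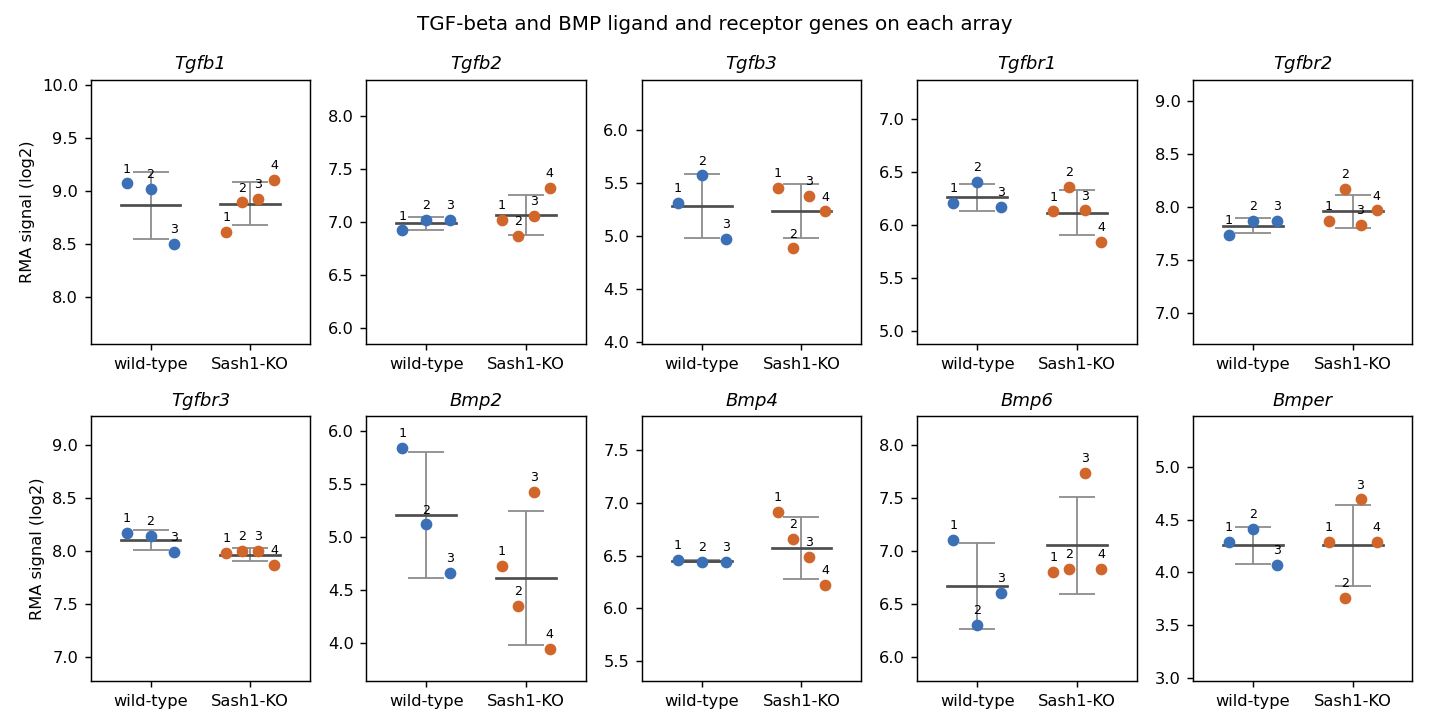
Signal of the 10 genes on each array (RMA value, log2; every panel spans the same height in log2 units). Points are arrays, numbered as in the labels, with bars for the mean and SD of 3 wild-type and 4 Sash1-knockout arrays; the labels overlap in every panel, and Bmp2 and Bmp6 spread over 1.90 and 1.44 units.

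The TGF-beta ligand genes were at similar signal under both labels. Tgfb1, which encodes the isoform made by many vascular and blood cells, measured 9.07, 9.02 and 8.50 on the wild-type arrays and 8.61, 8.89, 8.92 and 9.10 on the knockout arrays. Each label thus held arrays at both ends: wild-type 3 was lowest of all and knockout 4 highest, with wild-type 1 next to it. Its means were 8.86 ± 0.32 (SD, n = 3) and 8.88 ± 0.20 (SD, n = 4), a difference of 0.02 (95% confidence interval -0.40 to 0.43) whose sign turned without wild-type 3 (-0.17) or knockout 4 (-0.06). Leukocytes and platelets are known sources of Tgfb1 transcripts. The mean of 10 leukocyte markers was 5.27 to 5.81 on the wild-type arrays and 4.67 to 5.55 on the knockout arrays, and that of 5 platelet and megakaryocyte markers 4.87 to 5.90 and 4.71 to 5.86. Both lists were lowest on knockout 4, the array on which Tgfb1 was highest, and highest on wild-type 1, where Tgfb1 was next highest. The part of these cells in the Tgfb1 values was not tested.

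Tgfb2, whose product is an isoform known for its part in heart valve and epithelial development, measured 6.92, 7.02 and 7.02 on the wild-type arrays and 7.02, 6.87, 7.06 and 7.32 on the knockout arrays. Except for knockout 4, all arrays lay within 0.19 units of each other. Its difference was 0.08 (-0.20 to 0.36), and without knockout 4 it was -0.0033. Tgfb3, whose product is an isoform known for its role in palate fusion and lung development, measured 5.31, 5.57 and 4.97 against 5.45, 4.88, 5.38 and 5.23. Wild-type 3 and knockout 2 were its lowest arrays and wild-type 2 its highest. Its means, 5.28 ± 0.30 (SD, n = 3) and 5.24 ± 0.25 (SD, n = 4), differed by -0.05 (-0.49 to 0.39), a sign that turned without wild-type 2 (0.10) or knockout 2 (0.07) and with each array centred on its median (0.01).

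The BMP ligand genes held both the lowest and the highest difference among the 10. Bmp2, which encodes a BMP made by endothelial and other cells, measured 5.84, 5.12 and 4.66 on the wild-type arrays and 4.73, 4.35, 5.43 and 3.94 on the knockout arrays. The 3 highest arrays were wild-type 1, knockout 3 and wild-type 2, and wild-type 3 lay below knockout 1 and 3. Its means were 5.21 ± 0.59 (SD, n = 3) and 4.61 ± 0.63 (SD, n = 4), so the difference of -0.59 (-1.53 to 0.35) was no wider than the SD within either label. As a fold, the knockout-labelled mean was 0.662 times the wild-type-labelled one (95% confidence interval 0.345 to 1.27). An exact permutation test over the 35 splits of the arrays, two-sided, gave p = 0.286, where the smallest p it can give is 0.0286. Leaving out wild-type 1 gave -0.28, leaving out knockout 4 gave -0.37 and leaving out wild-type 3 gave -0.87. Without knockout 3 it was also -0.87, and without both wild-type 3 and knockout 3 it was -1.14, with unadjusted p of 0.0453 and 0.0185 in limma that did not pass when adjusted (0.869 and 0.35). Those arrays were picked by their Sash1 signal. Wild-type 3 was also the lowest wild-type array for Bmp2 and knockout 3 the highest knockout array, so leaving them out had to widen the difference.

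Bmp2 was among the genes that varied most from array to array. Its range over the 7 arrays was 1.90 units, a range reached or passed by 1.74% of all genes tested. The 3 genes whose profile over the 7 arrays, each centred on its own mean, lay closest to that of Bmp2 were Fam20a, Lrrc32 and Pf4. Their root mean square distances were 0.105, 0.180 and 0.206, where the median over all other named genes tested was 0.621. Picked as the smallest, these distances had to lie below that median. Fam20a encodes a secretory pathway pseudokinase. Lrrc32 encodes GARP, a membrane protein that holds latent TGF-beta, and Pf4 encodes platelet factor 4, a chemokine of platelet granules.

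Platelet and megakaryocyte markers, among which Pf4 is 1 of 5, averaged 5.90, 5.58 and 4.87 on the wild-type arrays and 5.18, 4.86, 5.86 and 4.71 on the knockout arrays. Pf4 was named above for its likeness to Bmp2, so this mean is not free of that choice. Of the 5 markers, 3 were highest on wild-type 1 and 2 on knockout 3. Knockout 4 was lowest in 2, knockout 2 in 2 and wild-type 3 in 1. As with Bmp2, wild-type 1, knockout 3 and wild-type 2 were the 3 highest arrays of the list mean and knockout 4 was the lowest. Immediate early and dissociation stress genes, such as Fos and Egr1, averaged 9.01, 8.80 and 7.51 against 8.72, 7.42, 9.37 and 6.71. Of 12 such genes 10 had a difference below 0, and of the 5 platelet markers all 5 did. Leukocyte markers, at 5.81, 5.51 and 5.27 against 5.42, 5.18, 5.55 and 4.67, had the same 3 highest arrays and the same lowest, with 9 of 10 below 0. Lung epithelial markers, at 8.37, 7.99 and 7.23 against 8.05, 7.46, 8.14 and 6.72, were also lowest on knockout 4, with 10 of 12 below 0. The part of these lists in the Bmp2 values was not tested.

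**Figure D2:**
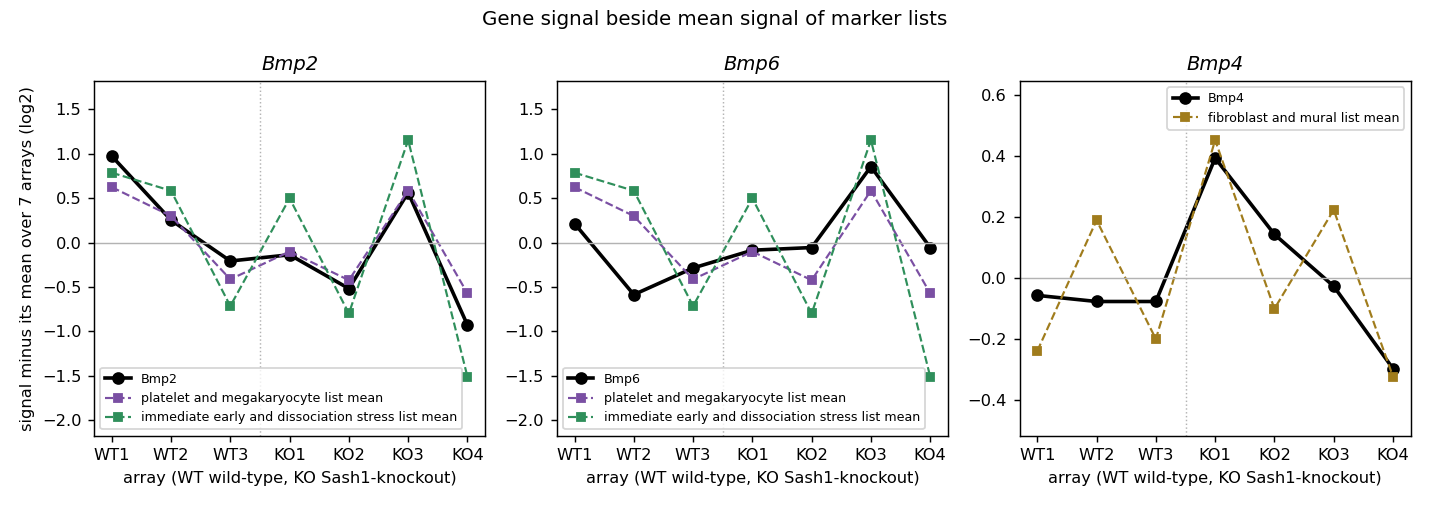
Signal of Bmp2, Bmp6 and Bmp4 on each array beside the mean signal of marker lists, each minus its own mean over the 7 arrays (log2; the Bmp4 panel has a narrower axis). Bmp2 and both lists beside it are above their mean on wild-type 1, wild-type 2 and knockout 3, whereas Bmp6 is below its mean on wild-type 2. On knockout 1 the immediate early list is above its mean and Bmp2 below. Bmp4 and the fibroblast and mural list are both highest on knockout 1 and lowest on knockout 4, but on knockout 2 Bmp4 is above its mean and the list below.

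Bmp6, which encodes a BMP made by endothelial cells and known for setting hepcidin and so iron uptake, had the highest difference of the 10. It measured 7.10, 6.30 and 6.60 on the wild-type arrays and 6.80, 6.83, 7.74 and 6.83 on the knockout arrays. Knockout 3 stood 0.91 units above the next knockout array, while the other 3 lay within 0.03 units of each other and between wild-type 3 and wild-type 1. Its means were 6.67 ± 0.40 (SD, n = 3) and 7.05 ± 0.46 (SD, n = 4). The difference of 0.38 (-0.29 to 1.06), or 1.30-fold (0.816 to 2.09), was smaller than the SD of either label (exact permutation p = 0.40). It was 0.15 without knockout 3, 0.60 without wild-type 1 and 0.12 without wild-type 3 and knockout 3 together.

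The profile of Bmp6 was not that of Bmp2: on wild-type 2 it was lowest, and on knockout 4 it was at the signal of knockout 2. Its closest profiles were those of Rrp15, Vegfc and Rspo3, at root mean square distances of 0.108, 0.139 and 0.157. The median over all other named genes tested was 0.445, and distances picked as the smallest had to lie below it. Rrp15 encodes a ribosome biogenesis factor, Vegfc the lymphatic growth factor VEGF-C, and Rspo3 a secreted enhancer of Wnt signalling. Vegfc measured 8.44, 7.93 and 8.33 on the wild-type arrays and 8.41, 8.41, 9.09 and 8.27 on the knockout arrays, so knockout 3 was its highest array too. Rspo3 measured 4.14, 3.41 and 3.68 against 4, 4.21, 4.64 and 4.17.

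Bmp4, which encodes a BMP known in the developing lung for its expression at distal epithelial tips and in mesenchyme, measured 6.46, 6.44 and 6.44 on the wild-type arrays and 6.91, 6.66, 6.49 and 6.22 on the knockout arrays. The wild-type arrays differed by 0.02 units while the knockout arrays spread over 0.69 units to both sides of them. Its difference was 0.12 (-0.25 to 0.50), and 0.01 without knockout 1 and 0.24 without knockout 4. The mean of 12 fibroblast and mural cell markers was 6.83, 7.25 and 6.86 on the wild-type arrays and 7.52, 6.96, 7.29 and 6.74 on the knockout arrays. It was highest on knockout 1 and lowest on knockout 4, as Bmp4 was. Of the 12 markers, 8 were highest on knockout 1 and 7 lowest on knockout 4, while Tcf21 was highest on knockout 4. The mean of 12 lung epithelial markers was 7.23 to 8.37 on the wild-type arrays and 6.72 to 8.14 on the knockout arrays, and was also lowest on knockout 4. The part of these cell types in the Bmp4 values was not tested.

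Bmper, whose product binds BMPs outside the cell and can hold back or promote their action, measured 4.29, 4.41 and 4.07 on the wild-type arrays and 4.29, 3.76, 4.69 and 4.29 on the knockout arrays. Knockout 3 was highest, knockout 2 lowest, and knockout 1, knockout 4 and wild-type 1 had the same value. The means, 4.26 ± 0.17 (SD, n = 3) and 4.26 ± 0.38 (SD, n = 4), differed by 0.00 (-0.50 to 0.50), with values of -0.14 without knockout 3 and 0.17 without knockout 2. Its probe set was dimmer than that of 70.6% of the genes tested, which limits what the array can resolve for it.

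Bmp6 and Bmper were the members of the 10 whose highest array was knockout 3, and their promoters are shown for this reason. Both are the 250 bases before the RefSeq start site on the plus strand of GRCm38.p6, Bmp6 at chr13:38345466-38345715 and Bmper at chr9:23222826-23223075. Capitals mark CAGAC, the SMAD box, on either strand.
Bmp6: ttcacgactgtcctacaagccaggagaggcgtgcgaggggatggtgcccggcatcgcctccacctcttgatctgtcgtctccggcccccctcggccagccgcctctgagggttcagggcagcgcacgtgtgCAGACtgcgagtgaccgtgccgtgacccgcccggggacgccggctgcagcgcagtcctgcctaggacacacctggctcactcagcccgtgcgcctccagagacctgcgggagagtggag
Bmper: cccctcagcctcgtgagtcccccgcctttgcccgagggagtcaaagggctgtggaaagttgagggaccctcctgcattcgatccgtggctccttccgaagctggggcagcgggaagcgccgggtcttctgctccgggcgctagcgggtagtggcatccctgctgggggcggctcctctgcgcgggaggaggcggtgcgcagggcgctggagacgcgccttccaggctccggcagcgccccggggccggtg

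The Bmp6 window held 1 SMAD box, starting 119 bases before the start site, and the Bmper window held none. Both windows were rich in G and C, at 68.8% and 71.6% of bases, with 22 and 24 CpG dinucleotides. CAGAC occurred in 42.2% of all 32841 promoter windows of this length. Other motifs were also searched on both strands. The palindromic SMAD element GTCTAGAC occurred in 0.167% of all windows and the GC-rich SMAD element GGCGCC in 9.59%. The AP-1 element TGANTCA occurred in 6.75% and the cAMP response element TGACGTCA in 1.55%. Neither the Bmp6 nor the Bmper window held any of them. The RefSeq table had promoters for 7 of the 10 genes. Among the others, CAGAC occurred in the windows of Tgfb2, Tgfbr2 and the downstream start of Tgfbr1, and GGCGCC in that of the upstream start of Tgfbr1. A match is a string of letters and not a measured binding site.

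The TGF-beta receptor genes had ranges of 0.30 to 0.57 units over the 7 arrays, beside 0.69 to 1.90 for the BMP ligand genes and a median of 0.60 over all genes tested. Tgfbr2, which encodes the type II receptor, measured 7.74, 7.87 and 7.87 on the wild-type arrays and 7.87, 8.17, 7.83 and 7.97 on the knockout arrays. Wild-type 1 was lowest and knockout 2 highest, and the other 5 arrays lay within 0.14 units. Its difference was 0.13 (-0.12 to 0.38), or 1.1-fold (0.922 to 1.31), with an exact permutation p of 0.286, and it was 0.063 without knockout 2.

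Tgfbr1, which encodes the type I receptor also called ALK5, measured 6.21, 6.41 and 6.17 on the wild-type arrays and 6.13, 6.36, 6.14 and 5.84 on the knockout arrays. Knockout 4 was lowest, and the other knockout arrays lay beside or among the wild-type arrays. Its difference was -0.15 (-0.47 to 0.17), and -0.05 without knockout 4.

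Tgfbr3, which encodes betaglycan, measured 8.17, 8.14 and 7.99 on the wild-type arrays and 7.98, 8.0, 8.0 and 7.87 on the knockout arrays. All knockout arrays lay below wild-type 1 and 2 by at least 0.14 units, and wild-type 3 lay among them. Its difference was -0.14 (-0.34 to 0.06), a fold of 0.909 (0.791 to 1.04), with an exact permutation p of 0.0857, the smallest unadjusted value among the 10. For each receptor the sign of the difference was the same under all 17 alternatives, which included leaving out each array. The filters, the variance model, the probe set means and the permutation test leave the difference unchanged, so the sign could not turn there. The 95% intervals ended at 1.31-fold or below in the upward direction for the receptor genes and at 0.724-fold or above in the downward direction.

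**Figure D3:**
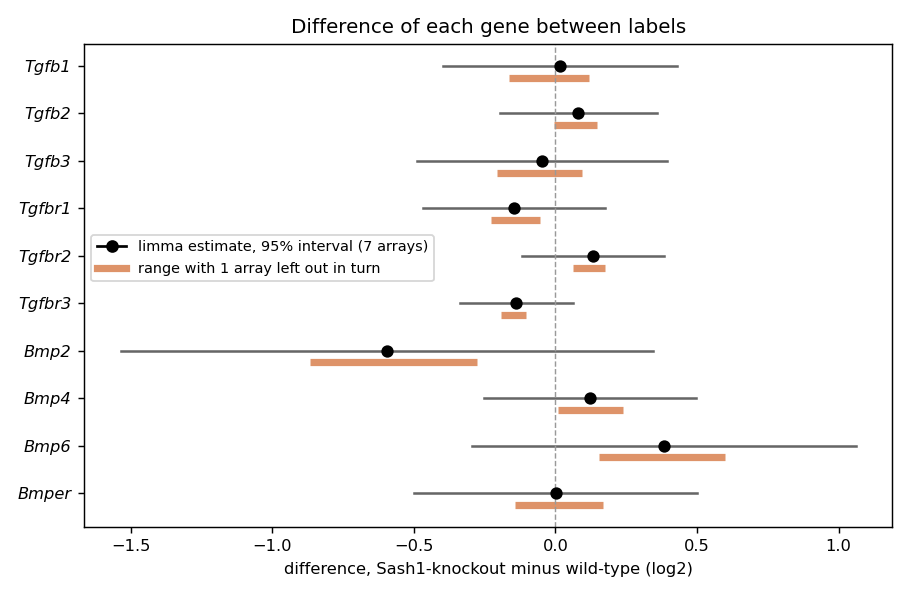
Difference of each gene, Sash1-knockout minus wild-type (log2), with limma's 95% confidence interval over 7 arrays and, as an orange bar, the range when each array was left out in turn. Every interval includes 0, the widest being that of Bmp2 (-1.53 to 0.35), and the left-out ranges of Tgfb1, Tgfb2, Tgfb3 and Bmper also include 0.

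Across the 10 genes together the arrays did not follow their labels. On wild-type 3 all 10 genes lay below their own mean over the 7 arrays. Tgfbr1, Tgfb2, Tgfbr2 and Tgfbr3 did so by only 0.01 to 0.03 units, and the share of all genes tested below their mean there is not given here. On wild-type 1, wild-type 2 and knockout 3 there were 7, 6 and 6 of the 10 genes above their own mean. On knockout 1, 2 and 4 the numbers above were 3, 4 and 4. The smallest root mean square distance between arrays over the 10 genes was 0.236, between wild-type 3 and knockout 1, and the largest was 0.647, between wild-type 1 and knockout 4. Genes are not scaled in this distance, so those of wide range, such as Bmp2 and Bmp6, can outweigh the others. Bmp2 was at 5.84 on wild-type 1 and 3.94 on knockout 4. Wild-type 1 was closest to knockout 3, at 0.288, nearer than to wild-type 2 (0.362) or wild-type 3 (0.468). Over all genes tested, wild-type 1 and knockout 3 were the closest arrays of all, at 0.293. Wild-type 1 and knockout 4 were again the farthest apart, at 0.477, so this pattern was not particular to the 10 genes. Knockout 4 had the lowest signal of Tgfbr1, Tgfbr3, Bmp2 and Bmp4 and the highest of Tgfb1 and Tgfb2.

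Other genes of the pathway were taken from 7 lists by role, 66 of whose 72 genes were tested. Of these 66 genes, 0 passed the test at an adjusted p of 0.05 and 3 had an unadjusted p under 0.05, beside 3.34% of all genes tested. Differences were above 0 in 25 and below 0 in 41, with a median of -0.06, beside 53.9% above and 45.6% below 0 over all genes tested. The split was 32 above and 34 below with each array centred on its median, a scaling under which 68.6% of all genes lay above 0. It was 32 and 33 without wild-type 2, 18 and 47 without wild-type 3, 17 and 48 without knockout 3, and 15 and 50 with wild-type 3 and knockout 3 both left out. In 15 of the 17 genes named from these lists, all but Bmp3 and Smad7, at least 1 left-out array changed the difference more than 1.5 times or turned its sign. None of the genes named from these lists passed the test (adjusted p = 0.971 to 0.972 in limma).

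Among the other ligands, 6 of 10 tested genes had a difference above 0 and 4 below, with a median of 0.01. Inhba, which encodes the activin A subunit, measured 3.10, 2.64 and 3.25 on the wild-type arrays and 3.54, 3.24, 3.34 and 3.83 on the knockout arrays, with wild-type 3 just above knockout 2. Its difference was 0.49 (0.03 to 0.95; unadjusted p = 0.0386), at signals near the filter value of 2.98, and 0.31 without wild-type 2 (unadjusted p = 0.14). Inhbb, the activin B subunit gene, measured 5.26, 4.90 and 3.84 against 3.84, 3.09, 4.35 and 4.21, a difference of -0.79 (-1.77 to 0.18; -0.50 without wild-type 1 and -1.21 without wild-type 3), and Bmp3 differed by 0.25 (-0.03 to 0.54).

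Genes of TGF-beta latency and activation split evenly, with 6 of 11 above 0 and 5 below and a median of 0.01. Lrrc32 measured 8.24, 7.85 and 6.99 on the wild-type arrays and 7.06, 7.08, 7.80 and 6.21 on the knockout arrays, a difference of -0.66 (-1.64 to 0.33) that was -0.38 without knockout 4 and -1.01 without wild-type 3. Nrros, which encodes a relative of GARP that holds latent TGF-beta on myeloid cells, lay the other way, at 5.82, 5.78 and 6.83 against 6.69, 6.61, 6.22 and 6.5, a difference of 0.36 (-0.27 to 1.00) that was 0.18 without wild-type 2 and 0.71 without wild-type 3. Furin, whose product cleaves the TGF-beta and BMP precursors, differed by -0.31 (-0.78 to 0.16), and by -0.083 without wild-type 1.

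Secreted antagonists had 5 of 9 genes above 0 and 4 below, with a median of 0.00. Fstl3, which encodes an activin-binding protein, differed by -0.21 (-0.58 to 0.16; -0.11 without wild-type 1), and the BMP antagonist gene Chrd by 0.07 (-0.16 to 0.30), since 6 arrays read 3.58 and knockout 3 read 3.86. Dcn, which encodes the TGF-beta-binding proteoglycan decorin and is also a fibroblast marker, differed by 0.34 (-0.69 to 1.36), with wild-type 1 at 5.69 and all other arrays between 6.67 and 7.58. Without wild-type 1 it differed by -0.19.

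Other receptors had 2 of 9 genes above 0 and 7 below, with a median of -0.06. Acvr1, which encodes the BMP type I receptor ALK2, measured 6.29, 6.75 and 6.02 on the wild-type arrays and 5.84, 5.94, 6.03 and 6.11 on the knockout arrays, a difference of -0.37 (-0.78 to 0.04), or -0.18 without wild-type 2. The pseudoreceptor gene Bambi differed by -0.21 (-0.55 to 0.12), and by -0.058 without wild-type 2. Acvr1b, the activin type I receptor gene, differed by 0.18 (-0.21 to 0.57), and by 0.043 without wild-type 3.

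SMADs and their regulators had 10 of 12 genes below 0, with a median of -0.11. The inhibitory gene Smad7 measured 8.42, 8.67 and 8.14 on the wild-type arrays and 8.07, 7.90, 8.17 and 7.88 on the knockout arrays, and knockout 3 overlapped wild-type 3. Its difference was -0.41 (-0.75 to -0.06; unadjusted p = 0.0259), with an unadjusted p of 0.134 with the replicate number as a block. Skil, which encodes the SMAD repressor SnoN, differed by -0.57 (-1.28 to 0.14) and Smad6, the other inhibitory SMAD gene, by -0.72 (-1.74 to 0.31). Without wild-type 2 these were -0.30 and -0.45, and without wild-type 3 they were -0.88 and -1.21.

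Response genes were below 0 in 7 of 11 for TGF-beta (median -0.17) and in 9 of 11 for BMP (median -0.22). The pathway lists share genes, so their counts are not independent of each other. Smad7 stands in both response lists and among the SMADs. Skil of the TGF-beta list and Smad6 and Smad9 of the BMP list are also among the SMADs. Bambi of the BMP list is also among the other receptors, and Ltbp2 of the TGF-beta list among the latency genes. Col1a1, a collagen gene and fibroblast marker, differed by 0.16 (-0.22 to 0.53), and by 0.037 without knockout 1. Id4, a BMP-responsive inhibitor of DNA binding, measured 5.0, 4.72 and 4.34 on the wild-type arrays and 4.17, 4.12, 4.47 and 4.36 on the knockout arrays, with a difference of -0.41 (-0.81 to -0.005; unadjusted p = 0.0479). Its unadjusted p was 0.104 with quantile normalization, 0.0982 with median centring and 0.132 with the replicate block, and its difference was -0.25 without wild-type 1 (0.169). As with Bmp2, the means of the platelet and of the immediate early list were highest on wild-type 1, wild-type 2 and knockout 3, which were also the highest arrays of Id4, and their part in these values was not tested.

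**Figure D4:**
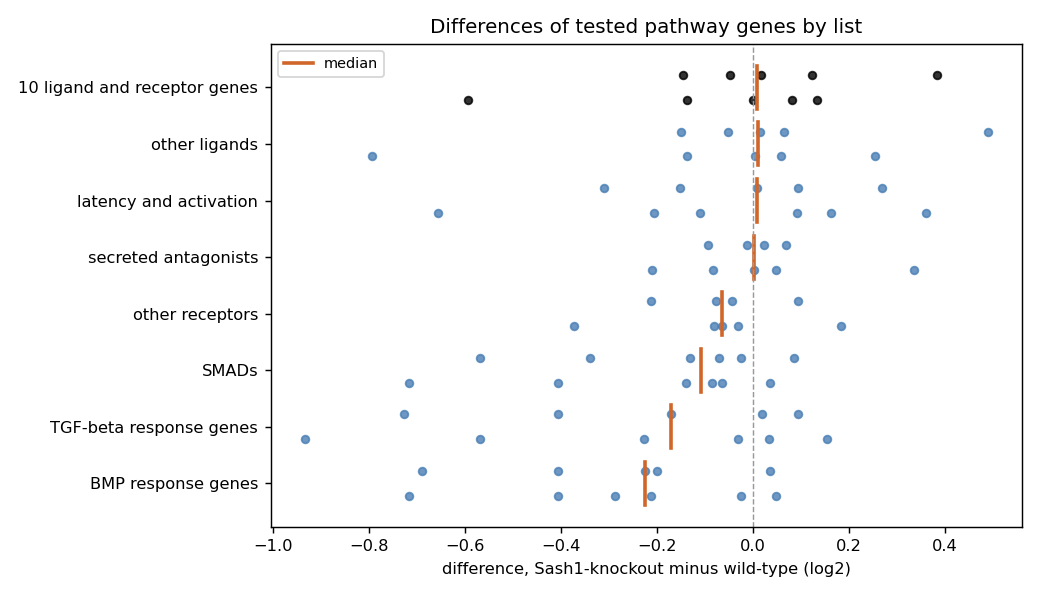
Differences, Sash1-knockout minus wild-type (log2), of the 10 genes and of the tested genes of 7 pathway lists; points are genes, placed above or below the line of their list for legibility, and orange bars are medians. The median is 0.01 for the 10 genes and -0.22, the lowest of these lists, for BMP response genes, and no gene shown passed the test. Genes that stand in several lists are shown in each.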

How the data were processed

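Sorted lung endothelial cells were profiled on 7 Affymetrix arrays, 3 labelled wild-type and 4 Sash1-knockout, grouped by their titles. The authors deposited 1 log2 value per probe set and array, made with RMA (background correction, quantile normalization, probe set summary) in Affymetrix Expression Console 1.1, per the submitters' processing notes; that they are log2 follows from their range. The genome build behind the array annotation is not given in the sources used here. Of 41345 probe sets, 23521 had 1 symbol in GEO's platform annotation, 1814 had several and 16010 none listed; symbols were updated through RefSeq (99.2% of identifiers matched). Each gene was represented by its brightest probe set, and the dimmest 25% of genes (5543, below 2.98) were left out.

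Labels were compared with limma 3.58.1 (lmFit, eBayes) in R 4.3.3, genotype as the only term, two-sided, Benjamini-Hochberg over all genes tested, called under 0.05. The fit was tested on simulated data. The number of arrays limits the precision; the median 95% half-interval was 0.345. The members, lists and tests were chosen with earlier results of these data known. Named genes were the 10 members, Sash1, the 3 of smallest p in each pathway list, and the 3 closest profiles to each member with a range of at least 1 unit, without unnamed gene models, olfactory receptors and small RNAs; marker genes named beside results were chosen after their values were seen. Lists are described by counts and medians, with no set test. Marker list means are over genes on the array. Promoter sequences are RefSeq's, GRCm38.p6.

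The alternatives were other normalizations, filters, variance models, array weights, probe set means, the replicate number as a block, an exact permutation test, a threshold of 0.1, each array left out in turn, and both arrays left out whose Sash1 signal opposes the label.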

Additional observations from a re-analysis of the deposited data

Results flagged for a closer look

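Each of the 10 genes was examined for a knockout array standing apart from the other 3 by a gap larger than Dixon's 95% value for 4 samples, which chance exceeds in about 1 in 20 groups. Bmp6 on the array labelled Sash1-knockout 3, at 7.74 against 6.80 to 6.83 on the others, had a gap of 0.968 of the range. Tgfbr3 on the array labelled Sash1-knockout 4, at 7.87 against 7.98 to 8.0, had a gap of 0.846 of a range of 0.13 units. The share of all genes tested with such a gap is not given here, so these cannot be read as more than usual.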

How the results depend on the processing

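Under all alternatives run, 0 genes passed an adjusted p of 0.05, and 0 passed 0.1 with all arrays kept; the smallest adjusted p of any of the 10 genes was 0.35 (Bmp2), without both arrays whose Sash1 signal opposes the label. The filters, variance model, probe set means and permutation test could not turn the sign of any of the 10 genes. The signs of Tgfbr1, Tgfbr2, Tgfbr3, Bmp2, Bmp4 and Bmp6 held in all alternatives. That of Tgfb1 turned with array weights (-0.10), with the replicate block (-0.057) and without both of those arrays (-0.18), and that of Bmper in the same 3 (-0.010, -0.010 and -0.24). Tgfb2 turned with the replicate block (-0.0033) and Tgfb3 with median centring (0.0092). With 1 array left out, the differences ranged from -0.17 to 0.12 for Tgfb1, -0.0033 to 0.15 for Tgfb2, -0.21 to 0.10 for Tgfb3 and -0.14 to 0.17 for Bmper. Among the other genes, Dcn ranged from -0.19 to 0.62 and Chrd from 0 to 0.093, the latter at 0 also without both arrays. Pathway genes with a difference above 0 numbered 25, with 15 without both arrays, 32 with median centring and 17 to 32 with 1 array left out. The causes were not tested. Median centring moved the median difference of all genes from 0.02 to 0.07. Same-numbered arrays did not deviate together (correlations of -0.18, -0.20 and -0.55 across genes), so no pairing by number showed. These correlations cannot exclude such a pairing, since wider differences between arrays also enter them. The block left 0 calls.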
